A study of Mus musculus with 2 samples.

Results

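The 10 genes described here encode basic helix-loop-helix (bHLH) transcription factors of mesenchyme and skeletal muscle, and were chosen by name: Twist1, Twist2, Hand1, Hand2, Tcf21, Tcf15 and Msc as fibroblast and mesenchymal regulators, and Myod1, Myog and Myf5 as muscle regulators. A position was assigned to a gene when it lay in the gene body annotated on the mouse genome build NCBIM37 (mm9) or within 2000 bp upstream of the annotated start. This gave 298 of the 826937 cytosine positions covered in both libraries, 274 in the 7 fibroblast and mesenchymal genes and 24 in the 3 muscle genes, and every gene had at least 3 covered positions. Methylation was measured by reduced representation bisulfite sequencing (RRBS), in which DNA is cut with MspI at CCGG and a cytosine still read as cytosine after bisulfite treatment is counted as methylated. RRBS does not tell 5-methylcytosine from 5-hydroxymethylcytosine. One library came from mouse embryonic fibroblasts (MEFs) of wildtype C57BL/6 mice (wt). The other came from MEFs of C57BL/6 mice with a knock-out of oestrogen receptor β (ESR2 -/-, βerko). Both were grown in the same medium, and in each library DNA of 3 batches was pooled, so that there were no replicates. The study names clonal differences between its wt and βerko cells as possible, and with 1 library of each these cannot be told apart from the genotype.

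A bHLH factor binds DNA as a dimer, usually with a ubiquitous E protein, through its basic region, and recognises the E-box. Twist and Hand factors and Tcf21 are known from mesenchymal, limb, heart and visceral lineages, and Msc is known as a repressor of muscle gene activation. Myf5 and Myod1 commit cells to the skeletal muscle lineage, and Myog drives their differentiation. Fibroblasts with forced Myod1 can become muscle cells.

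The common table gives a percentage of methylated reads at each position and no coverage, so that the depth of most values below is unknown. Read numbers were used only at differentially methylated positions (DMPs), defined as positions with more than 4 reads in both libraries, below 20 % methylation in one library and above 80 % in the other. Over all DMPs the median read number was 23 (wt) and 43 (βerko), and all covered positions averaged 40.7 and 38.8 % methylation. Within 500 bp of the start of Esr2, the targeted gene, 12 positions averaged 24.3 % (wt) and 2.45 % (βerko), values that are no check of the knock-out. The fibroblast label could not be checked against expression, and only 2 of 7 fibroblast marker genes had at least 3 positions near the start. Of these, Pdgfrb had 1.15 and 1.22 % methylation in wt and βerko MEFs, and Col1a2 had 93.6 and 48.3 %. Col1a1, with 1 position, and Vim, with 2, were at 0 % in both. The 3 markers of differentiated muscle, Ckm, Acta1 and Des, lay between 70.8 and 85.4 % in wt and between 40.6 and 70.4 % in βerko MEFs. Of the epithelial markers, Cdh1 had 21.3 % in wt and 7.65 % in βerko MEFs over 36 positions, and Epcam 91.7 and 75 % over 2. The listed blood, endothelial and pluripotency markers had no covered position near the start. A partial level in pooled DNA does not tell whether fewer cells or fewer alleles were methylated. All errors given below are standard deviations over positions, which are not replicates, and no difference between gene means could be tested with 1 library per cell type.

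None of the 10 genes differed by 20 percentage points or more in its mean over the whole window, the size used here to call a gene. Among all 16308 protein-coding genes with at least 3 covered positions, 3.37 % were lower and 0.957 % higher by that much in βerko MEFs. Of the 10 genes 9 had a lower mean in βerko than in wt MEFs, as had 61.4 % of all these genes, and Myog alone had a higher mean. Single positions differed far more than the gene means. Of all 298 positions 45 were lower by at least 20 points in βerko MEFs (15.1 %) and 17 were higher (5.70 %). Over positions in the window of any protein-coding gene these shares were 9.59 and 4.97 %. The 45 lower positions were found in all genes except Myog.

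**Figure D1:**
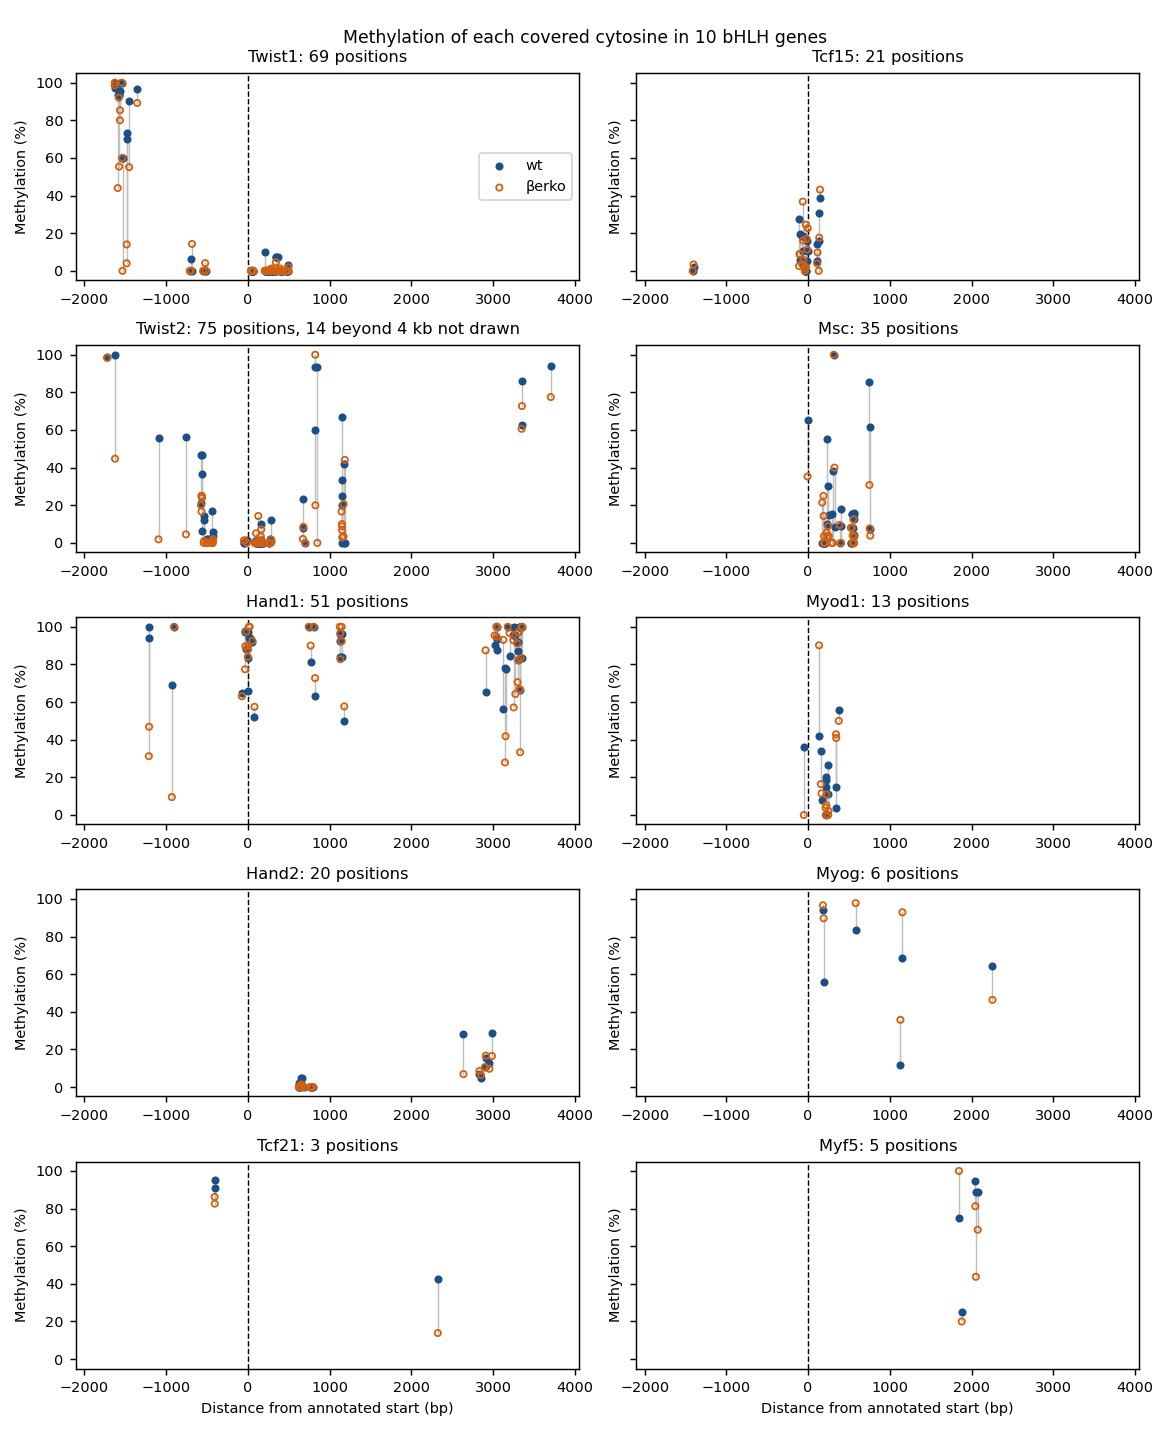
Methylation (%) of every covered cytosine against distance from the annotated start (bp) for each of the 10 genes, with filled blue points for wt, open orange points for βerko MEFs and a grey line joining the values of 1 cytosine. The start regions of Twist1 and Twist2 lie near 0 % and that of Hand1 between 52 and 100 % in both cell types, while the largest separations in Twist1 and Hand1 lie 1484 and 1212 bp upstream.

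Twist1, which maintains mesenchymal state, lies on chromosome 12 from 34642536 to 34644682 on the plus strand. Its 49 covered positions in the first exon, from 37 to 495 bp after the start, were unmethylated, averaging 0.701 ± 2.22 % in wt and 0.201 ± 0.739 % in βerko MEFs (SD over 49 positions). No position there exceeded 10 % in wt or 4.55 % in βerko MEFs. A further 6 positions from 711 to 516 bp upstream were also low, with means of 1.08 and 3.06 %. Between 1630 and 1355 bp upstream, 14 positions of 11 CpGs averaged 87.4 % in wt and 62.7 ± 35.8 % in βerko MEFs, a difference of -24.7 percentage points. Here 7 of the 14 positions were lower by at least 20 points and none was higher by that much. The values were uneven within this stretch, since the outermost CpG 1630 bp upstream had 100 % in wt and 98.6 % in βerko MEFs. At 1484 bp upstream the difference was largest, with 73.2 % in wt and 4 % in βerko MEFs on the plus strand, and 70.2 and 14.0 % at the opposite cytosine of the same CpG. At 1534 bp upstream it was 60 and 0 %, while 2 bases away, at 1536 bp, both cell types had 60 %. None of the 14 positions met the criteria for a DMP, because a wt or βerko value lay from 20 to 80 % or both were above 80 %. The stretch is shown 5′ to 3′ on the plus strand of NCBIM37, chr12:34640936-34641096, with covered CpGs in capitals, since it holds all 7 positions of Twist1 that differed by at least 20 points.
Twist1 upstream: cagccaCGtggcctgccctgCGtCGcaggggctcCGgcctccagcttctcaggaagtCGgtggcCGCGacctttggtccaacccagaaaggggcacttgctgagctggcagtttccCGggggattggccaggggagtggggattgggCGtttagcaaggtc

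Twist2, a close relative that acts in dermal fibroblasts, lies on chromosome 1 from 93698038 to 93744605 on the plus strand, and most of its body is intronic. As in Twist1, the positions around the start were unmethylated. The mean of 26 positions from 49 bp upstream to 285 bp downstream was 1.16 % in wt and 1.37 ± 3.18 % in βerko MEFs. In the upstream region the mean of 21 positions was 25.2 ± 31.3 % in wt and 12.7 ± 23.2 % in βerko MEFs, and 18 of them were lower in βerko. At 1626 bp upstream the level was 100 % in wt and 44.7 % in βerko MEFs, at 1094 bp it was 56 and 1.89 %, and at 758 bp it was 56.3 and 4.55 %. The single exception this far upstream was the CpG 1723 bp before the start, with 98.8 and 98.3 %. From 573 to 426 bp upstream 14 positions averaged 15.5 % in wt and 8.19 % in βerko MEFs. Within this stretch the 3 positions lower by at least 20 points lay 569, 568 and 565 bp upstream, and the level in wt dropped from 46.9 % there to 1.14 % at the least methylated position.

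The only DMP in the 298 positions lay in the intron of Twist2, at 93698887 on chromosome 1, 849 bp after the start on the minus strand. It was methylated in 93.3 % of 15 reads in wt (exact 95 % confidence interval 68.1 to 99.8 %) and in 0 % of 5 reads in βerko MEFs (0 to 52.2 %). The two-sided Fisher's exact test of these reads gave p = 0.000387 and a Benjamini-Hochberg adjusted p of 0.0452, with the 826937 covered positions taken as the number of tests. This test compares the reads of 2 libraries and covers counting error only. It was made on a position already picked as a DMP from the same reads, and 5313 of all 5787 hypomethylated DMPs passed it. With at least 10 reads required in both libraries the position no longer counted. The neighbouring cytosines on the same strand differed in direction, with 93.3 % in wt and 100 % in βerko MEFs at 823 bp and 60 and 20 % at 825 bp. DMPs made up 0.7 % of all covered positions when hypomethylated and 0.237 % when hypermethylated, and the 10 genes held 1 and 0. From 1145 to 1185 bp 8 positions were mixed, with 3 lower and 2 higher by at least 20 points. Deeper in the intron, 17 positions between 3347 and 36790 bp were methylated in wt at most positions, such as 100 % in wt and 36.8 % in βerko MEFs at 36624 bp, and 51.9 and 100 % at 36790 bp. Both stretches of Twist2 are printed as above, the first from chr1:93697458-93697618 because the most methylated positions in wt lie at its distal end, and the second from chr1:93698853-93698898 because it holds the DMP as its last covered CpG.
Twist2 upstream: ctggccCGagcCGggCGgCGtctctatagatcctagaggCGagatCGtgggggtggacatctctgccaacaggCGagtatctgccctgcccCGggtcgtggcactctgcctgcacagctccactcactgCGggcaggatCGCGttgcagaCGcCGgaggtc
Twist2 intron: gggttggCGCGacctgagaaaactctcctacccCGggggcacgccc

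Hand1, a factor of heart, limb and extra-embryonic development, lies on chromosome 11 from 57642207 to 57646320 on the minus strand. It was the most methylated gene of the 10 in both cell types, with a window average of 87.1 ± 13.8 % in wt and 80.9 ± 22.7 % in βerko MEFs (SD over 51 positions). In wt, 91.7 % of all covered protein-coding genes had a lower window mean. Unlike in Twist1 and Twist2, the start itself was methylated. The 11 positions from 73 bp upstream to 80 bp downstream averaged 84.2 % in wt and 85.4 ± 14.2 % in βerko MEFs, and none was below 52 % in either cell type. Upstream of them, 3 of 4 positions were much lower in βerko MEFs. At 931 bp upstream the level was 69.0 % in wt and 9.52 % in βerko MEFs, at 1209 bp it was 94.3 and 46.9 %, and at 1212 bp it was 100 and 31.3 %. The fourth, 904 bp upstream, had 100 % in both. The mean of all 9 upstream positions was 89.8 ± 13.5 % in wt and 66.6 ± 31.5 % in βerko MEFs. This difference of -23.2 percentage points was the only one of 4 upstream means in these genes past 20 points, against 5.66 % of all protein-coding genes with at least 3 upstream positions. It rested on those 3 positions, and from 500 bp upstream to 100 bp downstream of any annotated start the difference was 1.66 points. In the last exon and the end of the intron, from 2907 to 3355 bp, 26 positions averaged 88.7 % in wt and 81.0 % in βerko MEFs, with 7 lower and 2 higher by at least 20 points. Both upstream stretches are shown on the coding strand, the first from chr11:57647515-57647545, where the levels differed, and the second from chr11:57646335-57646425, which was methylated in both cell types.
Hand1 far upstream: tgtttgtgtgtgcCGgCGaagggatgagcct
Hand1 near upstream: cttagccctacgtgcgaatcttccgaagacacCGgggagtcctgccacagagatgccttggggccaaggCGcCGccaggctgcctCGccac

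Hand2, which acts beside Hand1 in the heart and patterns the limb, lies on chromosome 8 from 59799780 to 59803314 on the plus strand and was at the opposite end of the range. Its 20 covered positions, none of them upstream, averaged 6.04 ± 8.95 % in wt and 3.89 ± 5.71 % in βerko MEFs. The 13 exonic positions from 622 to 794 bp reached at most 4.55 % in wt and 1.25 % in βerko MEFs. Toward the end of the gene, 6 positions from 2830 to 2984 bp had means of 13.2 and 11.4 %. A single intronic position at 2636 bp differed by more than 20 points, with 28.3 % in wt and 6.9 % in βerko MEFs.

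Tcf21, a factor of the epicardium and of fibroblast precursors on chromosome 10 from 22537085 to 22539934, minus strand, was hardly covered, with 3 positions of 2 CpGs among the 114 CpGs of its window. Both strands of a CpG about 400 bp upstream were methylated, with 91.1 and 95.5 % in wt and 82.6 and 86.2 % in βerko MEFs. The third position, in coding sequence 2322 bp after the start, had 42.4 % in wt and 13.9 % in βerko MEFs. All 3 were lower in βerko, and the window mean differed by -15.4 points.

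Tcf15, also called paraxis and needed for somites to form epithelium, lies on chromosome 2 from 151969297 to 151974833 on the plus strand. Its window means were 11.5 ± 11.2 % in wt and 11.4 ± 12.1 % in βerko MEFs (SD over 21 positions), the smallest difference of the 10 genes. Single positions varied in either direction. At 110 bp upstream the level was 27.5 % in wt and 2.56 % in βerko MEFs, at 28 bp upstream it was 0 and 24.5 %, and at 130 bp after the start it was 30.9 and 0 %. Of 21 positions 6 were lower and 13 higher in βerko MEFs by any amount. The stretch at chr2:151969182-151969296 is shown because 13 of its CpGs were covered and no position in it exceeded 36.8 % in either cell type.
Tcf15 near upstream: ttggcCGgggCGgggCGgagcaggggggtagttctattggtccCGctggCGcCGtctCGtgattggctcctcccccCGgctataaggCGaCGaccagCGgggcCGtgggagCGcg

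Msc encodes musculin, a bHLH repressor, and lies on chromosome 1 from 14743427 to 14746047 on the minus strand. The 31 positions from 173 to 565 bp after its start averaged 13.4 % in wt and 9.13 ± 19.1 % in βerko MEFs, with 3 lower and 3 higher by at least 20 points. One CpG among them, 314 bp after the start, was methylated at 100 % in both cell types. Just upstream, 7 bp before the start, the single covered position had 65.5 % in wt and 35.3 % in βerko MEFs. In the intron, positions 760 and 750 bp after the start had 61.5 and 85.7 % in wt and 3.85 and 30.8 % in βerko MEFs, while the CpG between them at 754 bp was low in both. The start region of Msc overlaps Gm9947 on the other strand, and without the positions shared with another gene the window difference was -12.1 instead of -7.88 points.

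Among the muscle genes, Myod1, the factor that can turn fibroblasts into muscle cells, lies on chromosome 7 from 53631844 to 53634462 on the plus strand. Its 13 positions averaged 21.98 ± 16.2 % in wt and 21.1 ± 27.3 % in βerko MEFs. These nearly equal means hid differences in opposite directions. At 134 bp after the start the level was 41.7 % in wt and 90.2 % in βerko MEFs, and at 342 and 344 bp it was 3.7 and 14.8 % in wt and 42.9 and 40.9 % in βerko MEFs. The single upstream position, at 52 bp, had 36.4 % in wt and 0 % in βerko MEFs, and the position at 246 bp had 26.4 and 0 %. The coding stretch at chr7:53632049-53632099 is shown since its 6 positions were at 26.4 % or less in wt and at 10.9 % or less in βerko MEFs, between the positions that were higher.
Myod1 coding: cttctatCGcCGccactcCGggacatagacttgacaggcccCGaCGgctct

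Myog, the gene of myogenin on chromosome 1 from 136186581 to 136189124, plus strand, was the one gene with a higher mean in βerko MEFs. Its 6 positions, all in the gene body, averaged 62.9 ± 28.6 % in wt and 76.5 ± 27.8 % in βerko MEFs, a difference of 13.5 points. Of the 6 positions 5 were higher in βerko. In order from the start they had 93.8, 55.6, 83.6, 11.8, 68.8 and 64.1 % in wt. In the same order they had 96.6, 89.7, 97.7, 35.7, 92.9 and 46.3 % in βerko MEFs, so that only the last, in untranslated exon sequence, was lower. Among all covered protein-coding genes, 97.4 % had a smaller or more negative difference. Between the medians over positions the difference was 24.8 points, while the median of the paired differences was 19.0 points. The coding stretch at chr1:136187701-136187741 holds a pair of CpGs that were higher by 24.0 and 24.1 points at unlike levels.
Myog coding: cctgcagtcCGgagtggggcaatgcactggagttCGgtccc

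Myf5 lies on chromosome 10 from 106919964 to 106923190 on the minus strand, and was covered at 5 positions from 1845 to 2075 bp after its start, in an intron and a coding exon. The 3 in the coding exon had 88.9, 88.9 and 94.4 % in wt and 68.8, 43.8 and 81.3 % in βerko MEFs. The intronic pair had 25 and 75 % in wt and 20 and 100 % in βerko MEFs. The window mean was 74.4 ± 28.6 % in wt and 62.8 ± 31.4 % in βerko MEFs. Between the medians over positions the difference was -20.1 points, while the median of the paired differences was -13.2 points. Nothing was covered near its start.

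For promoters and bodies, the 2000 bp upstream and the annotated gene were compared separately. Upstream positions were found in 7 genes and at least 3 of them in 4 genes, while Hand2, Myog and Myf5 had none. Of these 4 upstream means 3 were lower in βerko MEFs by any amount, as were 58.8 % of all upstream means. Of 9 body means 7 were lower, against 59.8 % of all, and 0 of the 9 passed 20 points, where 3.43 % of all body means were lower and 1.04 % higher by that much. Of the 70 upstream positions in all, 19 were lower by at least 20 points in βerko MEFs (27.1 %) and 1 was higher. Among positions upstream of any protein-coding gene, 7.25 % were lower and 2.4 % higher by that much. These shares were not matched for the level in wt, and positions below 20 % in wt cannot be lower by 20 points. Of the 70 positions 34 were below 20 % in wt. The median upstream mean in wt was 43.4 % in the 4 genes and 1.63 % over all protein-coding genes. Of the 228 positions in gene bodies, 26 were lower (11.4 %) and 16 higher (7.02 %), where over all gene bodies the shares were 9.84 and 5.36 %. Neighbouring positions often come from the same reads, so that these counts hold fewer independent observations than positions. Of the 19 upstream positions, 16 lay more than 500 bp from the start of Twist1, Twist2 or Hand1, and the other 3 lay close to the start, 7 bp upstream of Msc, 52 bp upstream of Myod1 and 110 bp upstream of Tcf15. A split at 500 bp was added after the values had been seen. More than 500 bp upstream, 16 of 38 positions were lower by at least 20 points (42.1 %) and 0 were higher, where 11.8 and 4.4 % of such positions of all protein-coding genes were. Within 500 bp of the start 8 of 148 were lower (5.41 %) and 9 higher (6.08 %), where 5.96 and 1.74 % of all were. Of these 148 positions 119 were below 20 % in wt and could not be lower by 20 points. Among positions at 20 % or more in wt, 16 of 26 farther upstream were lower (61.5 %) and 0 higher, against 35.7 and 7.72 % of all, and 8 of 29 near the start were lower (27.6 %) and 3 higher (10.3 %), against 52.3 and 6.05 % of all. These positions come from few stretches of few genes, and the split is a description.

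**Figure D2:**
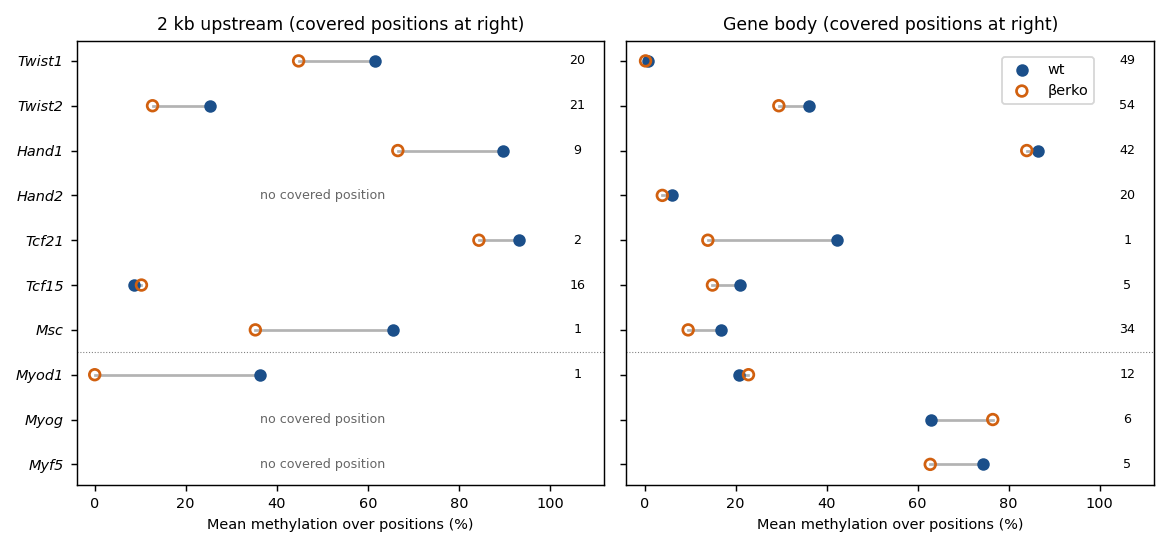
Mean methylation (%) over the covered positions of each gene in the 2000 bp upstream (left) and in the gene body (right), with filled blue points for wt and open orange points for βerko MEFs, the number of positions at the right, and a dotted line between the 7 fibroblast and mesenchymal and the 3 muscle genes. The upstream means of Twist1, Twist2 and Hand1 are lower in βerko MEFs by 12.5 to 23.2 points. The body means of Myog and Myod1 are the only ones that are higher, by 13.5 and 2.03 points, and 7 of the 12 body positions of Myod1 were lower. Means of 1 or 2 positions are drawn but were not called.

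To compare fibroblast with muscle regulators, each gene was given the same weight. In wt the window means of the fibroblast and mesenchymal genes ranged from 6.04 to 87.1 % with a median of 18.3 %, and those of the muscle genes from 21.98 to 74.4 % with a median of 62.9 %. In βerko MEFs the medians were 13.1 and 62.8 %. The ranges overlapped, since Hand1 and Tcf21 were methylated above every muscle gene in wt, and the difference between 7 and 3 genes measured in the same 2 libraries was not tested. The median over all covered protein-coding genes was 31.2 % in wt and 27.8 % in βerko MEFs. With each position weighted the same, the means were 34.4 and 43.2 % in wt, so that the distance between the groups depended on the weighting. All 7 fibroblast and mesenchymal genes had a lower mean in βerko than in wt MEFs, with a median difference of -6.2 points, and 2 of the 3 muscle genes did, with a median of -0.92 points. Over all genes 61.4 % had a lower mean, and the median difference was -0.38 points. Of the 7 genes, Tcf15 differed by only -0.14 points, with 13 of its 21 positions higher in βerko MEFs, and Tcf21 had 3 positions.

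At the level of positions, 41 of the 274 in fibroblast and mesenchymal genes were lower by at least 20 points in βerko MEFs (15.0 %) and 10 were higher (3.65 %). In the muscle genes 4 of 24 were lower (16.7 %) and 7 were higher (29.2 %). The shares over all covered positions were 10.4 % lower and 6.81 % higher, and over positions in the window of any protein-coding gene 9.59 and 4.97 %. Since methylation in wt limits the possible direction, positions were also divided by their level in wt. Of the 76 positions above 80 % in wt, 18 were lower by at least 20 points (23.7 %), against 15.6 % of all such positions. Of the 53 positions between 20 and 80 %, 27 were lower (50.9 %) and 8 higher (15.1 %), against 30.9 and 29 % of all such positions. The groups differed here, since 25 of 42 were lower and 4 higher in the fibroblast and mesenchymal genes, whereas 2 of 11 were lower and 4 higher in the muscle genes, a difference that was not tested. Of the 169 positions below 20 %, 9 were higher (5.33 %), against 3.58 % of all. All 5 partly methylated positions of Msc and 10 of 16 in Twist2 were among those lower, whereas in Hand1 3 were lower and 3 higher.

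**Figure D3:**
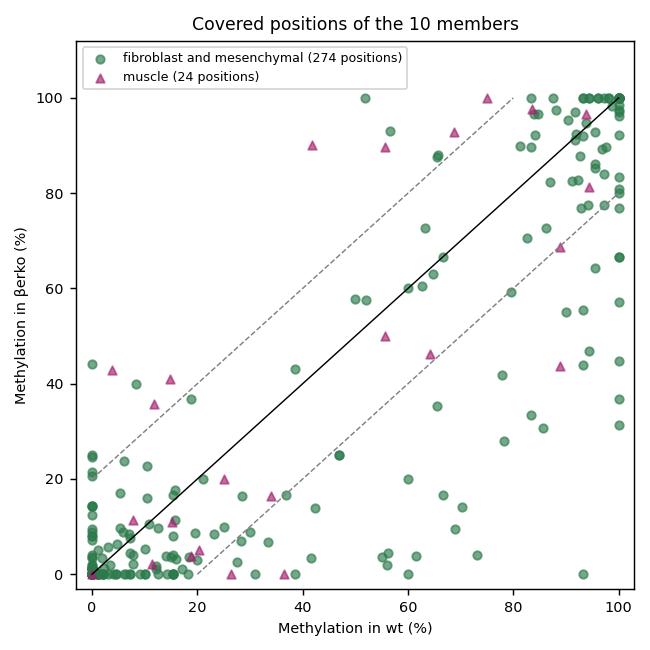
Methylation in wt (%, x axis) against βerko MEFs (%, y axis) for the 298 positions, with green circles for fibroblast and mesenchymal genes and purple triangles for muscle genes, the solid line at equal values and dashed lines at 20 points to either side. Most positions sit near 0 or 100 % in both, 45 lie on or below the lower dashed line and 17 on or above the upper one.

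Opposite cytosines of a CpG, which are read from different strands and hence different molecules, gave a measure of how far values of the same CpG differed within a library. In the 10 genes 22 CpGs were covered on both strands. The strands differed by a median of 7.28 points in wt and 3.94 points in βerko MEFs, and the difference between the cell types by 7.17 points. At 20 of the 22 CpGs the 2 strands gave differences within 20 points of each other. Over all 70667 CpGs covered on both strands this was so at 89.3 %, with a median of 2.6 points. The exceptions included the Twist2 CpG 1169 bp after the start, with 41.7 and 3.45 % on the plus strand and 0 and 20.6 % on the minus strand in wt and βerko MEFs. At the Twist1 CpG 1484 bp upstream both strands were lower by more than 50 points.

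Among all covered genes, 5 % had a window difference below -16.2 points and 5 % one above 8.52 points. Myog, at 13.5 points, lay above this range and the other 9 genes lay within it. The most negative window difference was that of Tcf21 at -15.4 points, with 5.47 % of genes lower, and it rested on 3 positions. Myf5 followed with -11.7, Twist2 with -8.27, Msc with -7.88, Hand1 with -6.2 and Twist1 with -5.19 points. Hand2 differed by -2.15, Myod1 by -0.92 and Tcf15 by -0.14 points. For the upstream region alone the ranks were more extreme, with 4.52 % of genes below Hand1, 7.27 % below Twist1 and 9.72 % below Twist2, while 87.7 % were below Tcf15.

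**Figure D4:**
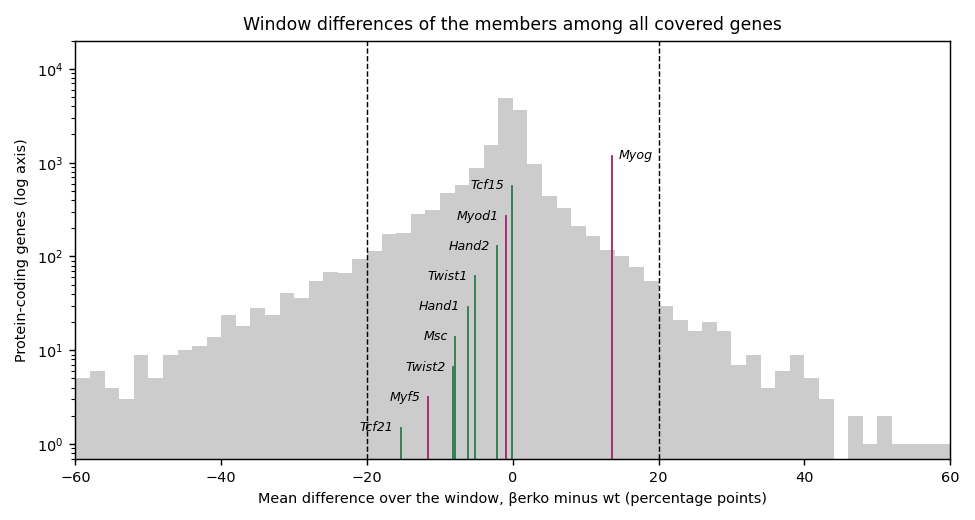
Number of protein-coding genes (grey, log axis) by their mean difference over the gene body and 2000 bp upstream, βerko minus wt, in percentage points, for 16308 genes with at least 3 positions. The x axis is limited to 60 points either side, vertical lines mark the 10 genes (green for fibroblast and mesenchymal, purple for muscle, heights only to separate the names) and dashed lines the 20 points used for a call, which none of the 10 crosses.

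The genes differed in CpG content around the start. In the 1000 bp centred on it, the ratio of observed to expected CpGs was 1.06 in Tcf15, 0.87 in Twist1, 0.80 in Twist2, 0.74 in Hand2 and 0.64 in Msc, above the median of 0.55 over protein-coding genes. These 5 had wt window means of 33.1 % or less. The ratio was 0.51 in Tcf21, 0.48 in Myod1, 0.41 in Myf5, 0.35 in Myog and 0.34 in Hand1, and in this set only Myod1 had a wt window mean below the 62.9 % of Myog. The ratio and the window means often describe different sequence. Within 500 bp of the start, Hand2 and Myf5 had no covered position, and Tcf21 and Myog had 2 each. In Twist2 the 32 positions there averaged 1.91 % in wt. The share of CpGs covered in the window ranged from 1.75 % in Tcf21 to 26.4 % in Twist1 and did not follow this order, with 23.9 % in Hand1 and 9.85 % in Tcf15. The E-box, written CANNTG and searched on both strands from 250 bp before to 50 bp after the start, was found in 4 of the 10 genes, Hand1, Hand2, Myod1 and Myog, and in 69.6 % of all protein-coding genes. The form CAGCTG was present in Myod1 alone of the 10 and in 15.2 % of all, CAGATG in Hand1 and Hand2 and in 15.1 % of all, and CATATG in none and in 3.22 % of all.

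Of 30 related genes that were listed with the 10, 27 had at least 3 covered positions and 1 was lower by at least 20 points, against the same 3.37 % of all genes. All 7 dimerisation partners and inhibitors, the E proteins Tcf3, Tcf4 and Tcf12 and the Id proteins that block bHLH dimers, differed by between -3.9 and 4.09 points. Of the other bHLH relatives, 5 of 7 were covered and their window means differed by -11.2 to 11.5 points. Myf6, which neighbours Myf5, had no covered position. Among 10 muscle regulators outside the family, Mef2c, a partner of myogenic bHLH factors, averaged 51.4 % in wt and 22.03 % in βerko MEFs over its 12 positions, and the window means of the rest differed by less than 20 points. Of the mesenchymal regulators outside the family, the 5 with at least 3 positions were lower in βerko MEFs, by differences between -7.9 and -0.25 points, and Snai2 had 1 position with 1.03 and 3.74 %. Upstream means with at least 3 positions passed 20 points in Prrx1, at -29.5 points over 10 positions, and in Pax7, at -21.7 points over 8 positions. In the other related genes with at least 3 upstream positions, they differed by between -4.13 points in Ptf1a and 0.81 points in Mef2a. Of all protein-coding genes with at least 3 upstream positions, 5.66 % were lower and 1.06 % higher by at least 20 points.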

How the data were processed

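The authors made RRBS libraries from pooled DNA of wt and βerko MEFs and used the Genomatix Mining Station to map their reads. The submitters' processing notes name CASAVA 1.4 and build mm9. The authors deposited the percent methylation, with no read number, of cytosines present in both libraries, and tables of DMPs in which the deposited values are read counts per position and library, with an annotation that was not used. Gene bodies were taken from GENCODE vM1 on NCBIM37, and 826925 positions, all except 12 mitochondrial ones, were checked to be CpG cytosines of that build.

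Each covered cytosine counted once, the mean over positions was taken per gene, and a difference of at least 20 percentage points over at least 3 positions was called. Stretches are covered positions with gaps of at most 150 bp. Two-sided Fisher's exact tests were made on the reads of DMPs and adjusted by the Benjamini-Hochberg method over 826937 positions, with untested positions at a p-value of 1. The calculations were tested on simulated data. The precision of the percentages cannot be given without coverage.

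All 10 genes were named, with each DMP and the position of largest difference in each gene, and further positions were named after their values had been seen. The genes and lists were chosen with earlier results of these data known. Alternatives were tried for strands, medians, upstream length, bins, overlapping genes, thresholds, read minimum and grouping. Expression data were not analysed here. The tools were SciPy 1.17.1, pandas 2.3.3, NumPy 2.4.6 and matplotlib 3.10.9 under Python 3.11.15.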

Additional observations from a re-analysis of the deposited data

How the results depend on the processing

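No paired analysis was possible because each cell type has 1 library, so that leaving out a replicate was not possible either. Of 180 alternative values, 150 stayed on the same side of the 20-point size and within 10 points of the reported value (counts, within 1.5 times). A value within these limits could still change sign. Of the alternatives to the differences of genes and groups 7 changed sign, and 1 of them, for Hand1 upstream as given below, lay outside the limits. Among the 7, the body difference of Myod1 was 2.03 between means and -5.745 between medians. The median difference of the muscle genes, -0.92, was 0.45 with each position weighted the same. With a promoter from 500 bp upstream to 100 bp downstream of any start, the upstream difference of Hand1 turned from -23.2 to 1.66 points, that of Twist1 was 0 and that of Twist2 -1.99. By construction this promoter leaves out the positions farther upstream. With the first 500 bp of the gene added to the 2000 bp upstream, they were -10.8 for Hand1 and -5.19 for Twist1. Between the median of βerko and that of wt over positions, the upstream difference was -19.7 for Hand1 and -32.0 for Twist1. By this measure Myog (24.8) and Myf5 (-20.1) passed 20 points in window and body. So 1 gene of the 10 was called lower and 1 higher, where 1201 (7.36 %) and 393 (2.41 %) of all 16308 genes were. This measure ignores the pairing of values by position. The medians of the paired differences were 19.0 for Myog, -13.2 for Myf5, -13.1 for Hand1 upstream and -3.95 for Twist1 upstream. With a difference of 10 points as the size, 2 of the 10 genes were called lower and 1 higher, where 1612 (9.88 %) and 673 (4.13 %) of all 16308 genes were. With 30 points 0 of the 10 genes were called lower or higher, where 229 (1.4 %) and 53 (0.325 %) of all genes were. With at least 10 positions 7 of the 10 genes were counted and 0 were called. Of the 13704 genes counted then, 402 (2.93 %) were called lower and 36 (0.263 %) higher. Averaged over 500 bp bins, Myod1 differed by -17.2 points, since 1 upstream position then fills a bin, Msc by -15.2, Twist2 by -14.7, Twist1 by -14.6 and Myf5 by -8.08 points, so that the order of the genes changed. With at least 10 reads, 0 DMPs remained. The median level of the fibroblast and mesenchymal genes was 33.1 % in wt and 24.8 % in βerko MEFs without Tcf15 and Msc, and the means with positions weighted equally were 34.4 and 28.3 %, and 43.2 and 43.6 % for the muscle genes. The causes of the other shifts were not tested. Depth limits the text in that 4 of 10 genes had at least 3 upstream positions and read numbers were used at 1 position of the 10 genes.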

Other observations

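The 20 covered positions inside Hand2, which hold 7.55 % of the CpGs of its window and none before 622 bp, were at 28.6 % or less in both cell types, and the sequence after its end was more methylated in wt. In the 5000 bp downstream of the annotated end, which were added after the values had been seen, all 30 covered positions were lower in βerko MEFs, by differences between -100 and -20.2 points. They averaged 86.7 % (wt) and 15.3 % (βerko). The positions lay from 59805121 to 59807664 on chromosome 8, 1807 to 4350 bp after the end of the gene. Of them 12 were hypomethylated DMPs, with 5 to 35 reads in wt and 19 to 104 reads in βerko MEFs, and 11 passed the two-sided Fisher's exact test after Benjamini-Hochberg adjustment over all positions. DMPs were already picked from the same reads by their percentages, so that passing was likely. Of all 5787 hypomethylated DMPs 5313 passed. At 59807572 all 24 reads in wt and 0 of 60 in βerko MEFs were methylated, with an adjusted p of 1.21e-18 in this exact test. The stretch around it, chr8:59807540-59807670 on the plus strand of NCBIM37, is shown with covered CpGs in capitals.
Hand2 downstream: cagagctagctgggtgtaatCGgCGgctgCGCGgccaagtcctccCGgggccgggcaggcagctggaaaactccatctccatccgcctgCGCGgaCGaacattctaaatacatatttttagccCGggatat

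Of the 10 genes only Hand1 also had at least 3 positions in this downstream region, where 13 positions averaged 82.3 % (wt) and 71.9 % (βerko) and none was a DMP. Among 5565 protein-coding genes with at least 3 positions there, 6.59 % were lower and 2.55 % higher by at least 20 points, so that this region was called for 1 of 2 genes. The nearest positions of the deposited DMP lists outside the windows were sought with no read minimum applied. Apart from Hand2, they lay 11321 bp upstream of the start of Tcf15, 17137 bp upstream of Myod1 and 42295 bp upstream of Hand1. In the other 6 genes they lay at least 289005 bp away.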
